A study of Mus musculus with 4 samples.

Results

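The difference between the lipopolysaccharide (LPS) responses of wild-type and Mfp2-/- RAW264.7 cells was computed from all 4 arrays of the series. It is the log2 LPS response of the Mfp2-/- cells minus the log2 LPS response of the wild-type cells, so that a value of 1 is a response 2-fold higher in the Mfp2-/- cells. Genes were used when 1 probe was well above background on all 4 arrays, which held for 15526 of 37008 genes and transcripts and for 23607 of 56605 non-control probes. The same number is also the genotype difference with LPS minus the genotype difference without LPS, and this second reading was used to separate genes past 2-fold in untreated cells from genes past 2-fold with LPS.

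RAW264.7 is a mouse macrophage line. The groups were wild-type cells, called naive in the labels, without LPS, the same cells with LPS, Mfp2-/- cells without LPS and Mfp2-/- cells with LPS. Each group had 1 array hybridised with Cy3-labelled total RNA, so the values stand without replicates and carry no p-values. The LPS dose and time, the way the knockout was made and whether it is a single clone were not stated in the labels. All 4 arrays lay on 1 slide with 1 scan, and the position of an array on the slide cannot be told apart from its group.

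Mfp2 is the multifunctional protein of peroxisomal beta-oxidation, encoded by Hsd17b4, which hydrates and dehydrogenates the chain-shortening intermediates of very long chain and branched fatty acids. LPS is sensed by Toll-like receptor 4. Its MyD88 branch activates NF-kB and MAP kinases and drives fast transcription of cytokines, chemokines and immediate early genes, while its TRIF branch activates IRF3, induces interferon-beta and, through secreted interferon, a second wave of interferon-stimulated genes. LPS also slows the cell cycle of macrophages.

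Levels are given as signal relative to the 75th percentile of non-control probes on the same array, which is set to 1. The Hsd17b4 probe read 12.5 in untreated and 9.03 in LPS-treated wild-type cells, and 6.88 and 4.01 in the Mfp2-/- cells. Its mRNA was thus lower in the Mfp2-/- cells at both levels, by 0.86 (log2) without and 1.17 with LPS, and was still well above background. Whether the probe lies in the disrupted part of the gene is not given. The difference of responses of Hsd17b4 was -0.31. Of 14 macrophage markers, 13 were well above background on all 4 arrays, and their median difference of responses was -0.09. Of the markers of other cells, 0 of 6 B-cell genes and 0 of 11 genes of fibroblasts, endothelium and epithelium were measured on all arrays, against 2 of 8 for T and NK cells and 2 of 9 for neutrophils and mast cells.

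On each array 47.4% to 49.7% of spots other than controls passed the background flag, and 0 were saturated. Replicate spots of a probe within an array had an SD of 0.0520 to 0.112 on the log2 scale, widest on the array of Mfp2-/- cells with LPS, which also had the most outlier spots (149, against 90 to 137). Carried through the 4 arrays, this within-array error is 0.16 (log2) for a difference of responses. It holds no error between cultures. The number of arrays limits the precision, since a deviation of any single array enters the difference in full. A value with another background correction (normexp) is given beside a gene where it lies under 2-fold or differs by over 1.5 times.

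The LPS responses of the genotypes differed by 2-fold or more in 715 of 15526 genes (4.61%). The difference was 1 or more in 262 genes (1.69%) and -1 or less in 453 genes (2.92%). Over all genes measured its median was 0.0028, its SD 0.47, and its 5th and 95th percentiles were -0.78 and 0.62. Counted by probe, 445 of 23607 were higher (1.89%) and 600 lower (2.54%). In wild-type cells 1265 genes were 2-fold or more higher with LPS (8.15%) and 1151 lower (7.41%). In Mfp2-/- cells these numbers were 1556 (10%) and 1745 (11.2%). The SD of the response over genes was 0.87 in wild-type and 1.0 in Mfp2-/- cells, while the spot error of a response was 0.08 and 0.14.

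**Figure D1:**
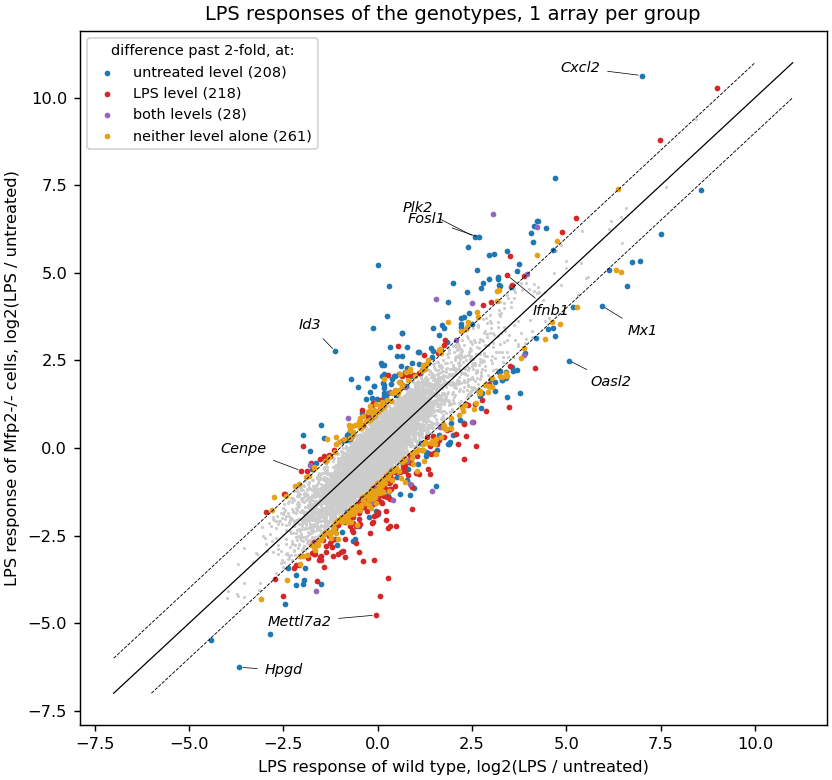
Each point is a gene measured on all 4 arrays, placed by its log2 LPS response in wild-type cells (x axis) and in Mfp2-/- cells (y axis), 1 array per group. The solid line marks equal responses and the dashed lines a 2-fold difference; coloured points are the 715 genes past 2-fold, by the level at which the genotypes differed, with Cxcl2 and Id3 above the lines and Oasl2, Hpgd and Mettl7a2 below them.

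Genes past 2-fold were sorted by the 2 genotype differences that make up the value. A gene was placed at the untreated level when the genotypes differed 2-fold or more without LPS and less with LPS, and at the LPS level in the reverse case. Without LPS, 253 of all genes were 2-fold or more higher in Mfp2-/- cells (1.63%) and 286 lower (1.84%), and with LPS 171 were higher (1.1%) and 389 lower (2.51%). Of the 262 genes with a higher difference, 114 (43.5%) lay at the untreated level and 42 (16%) at the LPS level, 10 passed 2-fold at both in the same direction and 1 in opposite directions, and 95 (36.3%) passed at neither alone. Of the 453 genes with a lower difference, 94 (20.8%) lay at the untreated level, 176 (38.9%) at the LPS level, 15 at both in the same direction, 2 at both in opposite directions and 166 (36.6%) at neither alone. The untreated level was the largest class of the higher differences and the LPS level the largest of the lower ones.

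The 114 genes with a higher difference at the untreated level were all lower in untreated Mfp2-/- cells, with a median genotype difference of -1.58, and reached the wild-type signal with LPS (median difference 0.00042). The 94 with a lower difference at the untreated level were all higher in untreated Mfp2-/- cells, with a median of 1.31, and the median with LPS was -0.05. The 176 genes with a lower difference at the LPS level started alike (median -0.01) and ended lower in Mfp2-/- cells with LPS (median -1.37), and the 42 with a higher difference at that level went from a median of -0.03 to 1.25. The signs at the level that defines a class follow from the rule. The medians at the other level were also bounded by it. There the genotypes had to be less than 2-fold apart, and the difference of responses had to reach 1 in size. Genes that kept most of their genotype difference could therefore not enter a class. The array with the widest spot spread, Mfp2-/- with LPS, is the one on which the 176 genes were low. Its part in that count was not tested. For the 114 and 94 genes, a deviating untreated wild-type array and a deviating untreated Mfp2-/- array cannot be told apart.

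**Figure D2:**
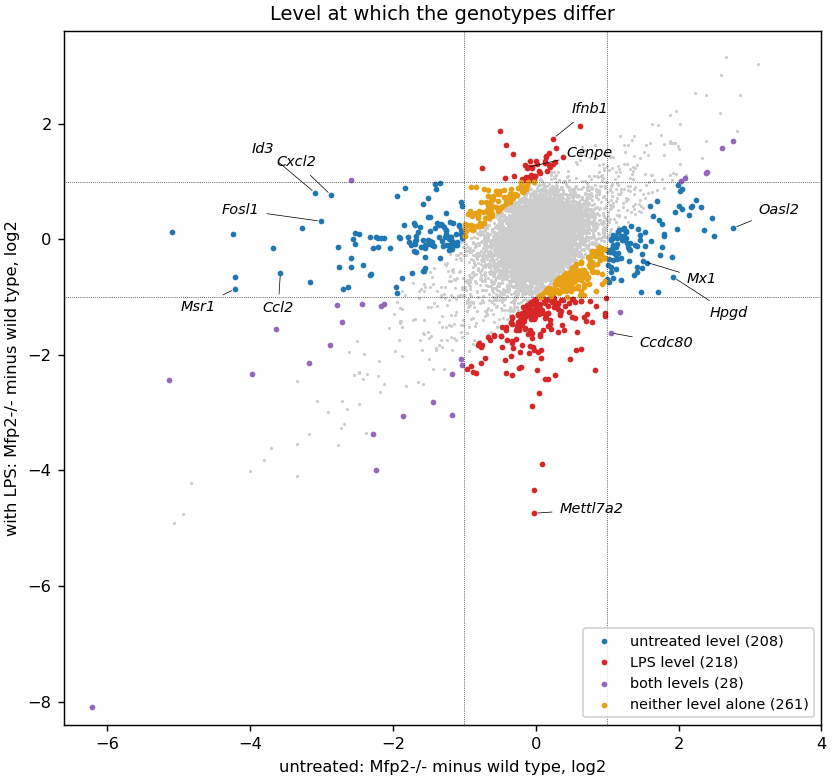
Each point is a gene placed by its genotype difference without LPS (x axis, log2 of Mfp2-/- over wild type) and with LPS (y axis). Genes on the horizontal arms were past 2-fold in untreated cells only, such as Cxcl2, Fosl1 and Oasl2, and genes on the vertical arms with LPS only, such as Ifnb1, Cenpe and Mettl7a2; dotted lines mark 2-fold.

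**Figure D3:**
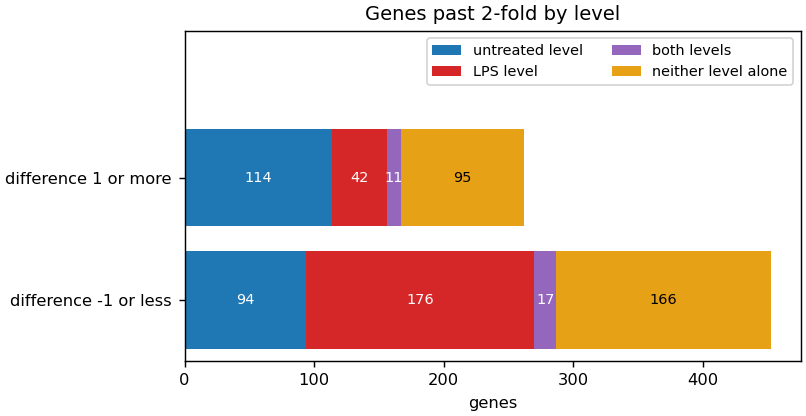
Number of genes past 2-fold in the difference of LPS responses, by direction (rows) and by level (colours). The untreated level is the largest block of the higher differences (114 genes) and the LPS level of the lower differences (176 genes).

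Genes induced by LPS in both genotypes numbered 1034, and 93 of them had a higher difference and 67 a lower one. Over all genes measured, 1.69% had a higher and 2.92% a lower difference. Most members of the cytokine, chemokine, feedback and interferon-stimulated lists below were induced by LPS. For them the 93 and 67 of 1034 are a nearer comparison than the shares over all genes. Of the 93, 50 lay at the untreated level, and of the 67, 31 did. A further 521 genes passed 2-fold induction in Mfp2-/- cells but not in wild type, of which 91 differed by 2-fold or more. Another 229 passed it in wild type but not in Mfp2-/- cells, 61 of them with a difference past 2-fold. On the repressed side, 944 genes fell in both genotypes, with 8 higher and 77 lower differences. Repression past 2-fold in Mfp2-/- cells alone held 799 genes, of which 181 had a lower difference of 2-fold or more, and 88 of these 181 lay at the LPS level.

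Some chemokines had a much larger LPS response in Mfp2-/- cells, with the lower signal in untreated Mfp2-/- cells. Cxcl2, which draws neutrophils, read 0.637 in wild-type and 0.0873 in Mfp2-/- cells without LPS, and 81.6 and 139 with LPS. Of the untreated arrays the Mfp2-/- one was thus the lower. The LPS response was 7.0 (log2) in wild type and 10.64 in Mfp2-/- cells, a difference of 3.63 (2.33 with normexp). Ccl2, the main attractant of monocytes, read 21.1 and 1.78 without LPS and 550 and 369 with LPS, a difference of 3.0. Ccl4 went from 60.6 and 10.3 to 466 on both LPS arrays, a difference of 2.55. In each the genotypes were more than 2-fold apart without LPS and less than 2-fold apart with LPS.

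Of 10 chemokines measured on all arrays, out of 18 listed, 4 had a higher and 2 a lower difference, against 1.69% and 2.92% of all genes. Among the 1034 genes induced in both genotypes 93 were higher and 67 lower. The list's median was 0.56, and 0.29 with the stricter filter on dim probes, which left 9 members. Besides Cxcl2, Ccl2 and Ccl4, Ccl3 was higher (1.21). The 2 lower ones were Ccl6 (-2.31), at the LPS level, and Ccl5 (-1.40), an interferon-responsive chemokine that was higher in untreated Mfp2-/- cells. Ccl5 read 2.37 and 6.86 without and 429 and 471 with LPS. Chemokines therefore did not move as one block.

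Among 9 inflammatory cytokines measured of 21 listed, 4 had a higher difference and 1 a lower one, and the median was 0.64. Over all genes 1.69% were higher and 2.92% lower, and of the 1034 induced in both genotypes, 93 and 67 were. Tnf, the early cytokine of the NF-kB branch, was 1.20 lower (log2) in Mfp2-/- cells without LPS and read 143 and 176 with LPS, a difference of 1.5 that lay at the untreated level. Il1rn, which encodes the antagonist of the interleukin-1 receptor, read 9.96 and 2.15 and then 167 and 152, a difference of 2.08. A second probe of each gene gave 1.49 for Tnf and 2.15 for Il1rn. Il15, an interferon-responsive cytokine, went the other way, from 0.926 and 1.96 to 3.35 and 2.11, a difference of -1.75, and its other probes gave -1.85 and -1.75. The antagonist and the cytokine Tnf thus shared the lower signal in untreated Mfp2-/- cells.

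Immediate early genes, transcription factors switched on within minutes of a signal, held 5 higher and 1 lower difference among 17 measured, against 1.69% and 2.92% of all genes, with a median of 0.54. Their median genotype difference was -0.85 without LPS and -0.05 with LPS. Fosl1, an AP-1 subunit, read 0.773 and 0.0963 without LPS and 5.01 and 6.22 with LPS, a difference of 3.32 (2.09 with normexp). Jun, its partner, read 7.23 and 2.70 and then 10.8 and 9.98, a difference of 1.31. Nr4a1, an orphan nuclear receptor, was unlike them: it lay 0.91 lower without and 0.90 higher with LPS, under 2-fold at each, and its difference was 1.81. Klf4 was the 1 lower member (-1.18, and -0.96 with normexp), and it was low with LPS.

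Feedback inhibitors of Toll-like receptor and cytokine signalling had 7 higher and 1 lower difference among 18 measured, against 1.69% and 2.92% of all genes. Among the 1034 genes induced in both genotypes 93 were higher and 67 lower. The median of the feedback list was 0.74, and it was 0.42 with normexp and 0.49 with the stricter filter on dim probes. Irak3, a kinase-dead brake on MyD88 signalling, read 0.581 and 0.163 without and 2.32 and 4.26 with LPS, a difference of 2.71 (1.76 with normexp). Zfp36, which destabilises Tnf mRNA, had a difference of 1.44, and Dusp4, a MAP kinase phosphatase, 1.66, with a second probe at 2.10. Trib1, Atf3, Trib3 and Dusp5 made up the rest of the higher members, and with normexp Trib3 (0.89) and Dusp5 (0.17) were under 2-fold. Cd200r1, an inhibitory receptor of macrophages, was the lower one at -1.46, with a second probe at -2.14, and it was past 2-fold only with LPS. Other well-known members stayed under 2-fold: Dusp1 had -0.23, Socs1 -0.46 and Socs3 -0.65.

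NF-kB subunits and feedback genes were nearer to the rest, with 3 higher and 0 lower differences among 20 and a median of 0.31. Over all genes 1.69% were higher and 2.92% lower, and of the 1034 induced in both genotypes, 93 and 67 were. The 3 higher members were Traf1 (1.92), Nfkbia (1.21), which encodes the inhibitor of NF-kB that is resynthesised after activation, and Nfkbib (1.03). The Toll-like receptor 4 complex and its adaptors had a median of 0.10. They held 1 higher member of 22, Irak2 (1.11), against 1.69% of all genes. Tlr4 had -0.18, Cd14 0.38 and Myd88 -0.18.

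Other genes with the lower signal in untreated Mfp2-/- cells came from the plasminogen system and matrix proteases, where 3 of 8 measured members had a higher difference, against 1.69% of all genes. Plaur, the urokinase receptor, read 20.1 and 3.49 and then 169 and 161 (2.45), and Mmp9 had 1.84 (0.68 with normexp). Msr1, a scavenger receptor, read 2.36 and 0.127 without and 12.5 and 6.86 with LPS, a difference of 3.35 (2.12 with normexp) with a second probe at 3.88. Plk2, a stress-inducible kinase, read 0.615 and 0.0638 and then 3.65 and 4.17, a difference of 3.46 (1.82 with normexp).

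Id3 was the 1 gene repressed past 2-fold in wild type and induced past 2-fold in Mfp2-/- cells. It encodes an inhibitor of basic helix-loop-helix factors and is a target of BMP signalling. Its signal was 6.57 without and 3.0 with LPS in wild type, against 0.771 and 5.25 in Mfp2-/- cells, a difference of 3.90. Its relative Id1 read 1.38 and 0.230 without LPS and 1.98 and 1.42 with LPS, a difference of 2.11, and Smad6, another BMP target, had -1.40 (-0.51 with normexp). Rpl17-ps8, the largest higher difference (5.23), is annotated as a transcribed pseudogene, whose probe may also read its parent gene, and it was low on the untreated Mfp2-/- array alone (0.424, against 14.4 to 15.9 on the other 3).

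**Figure D4:**
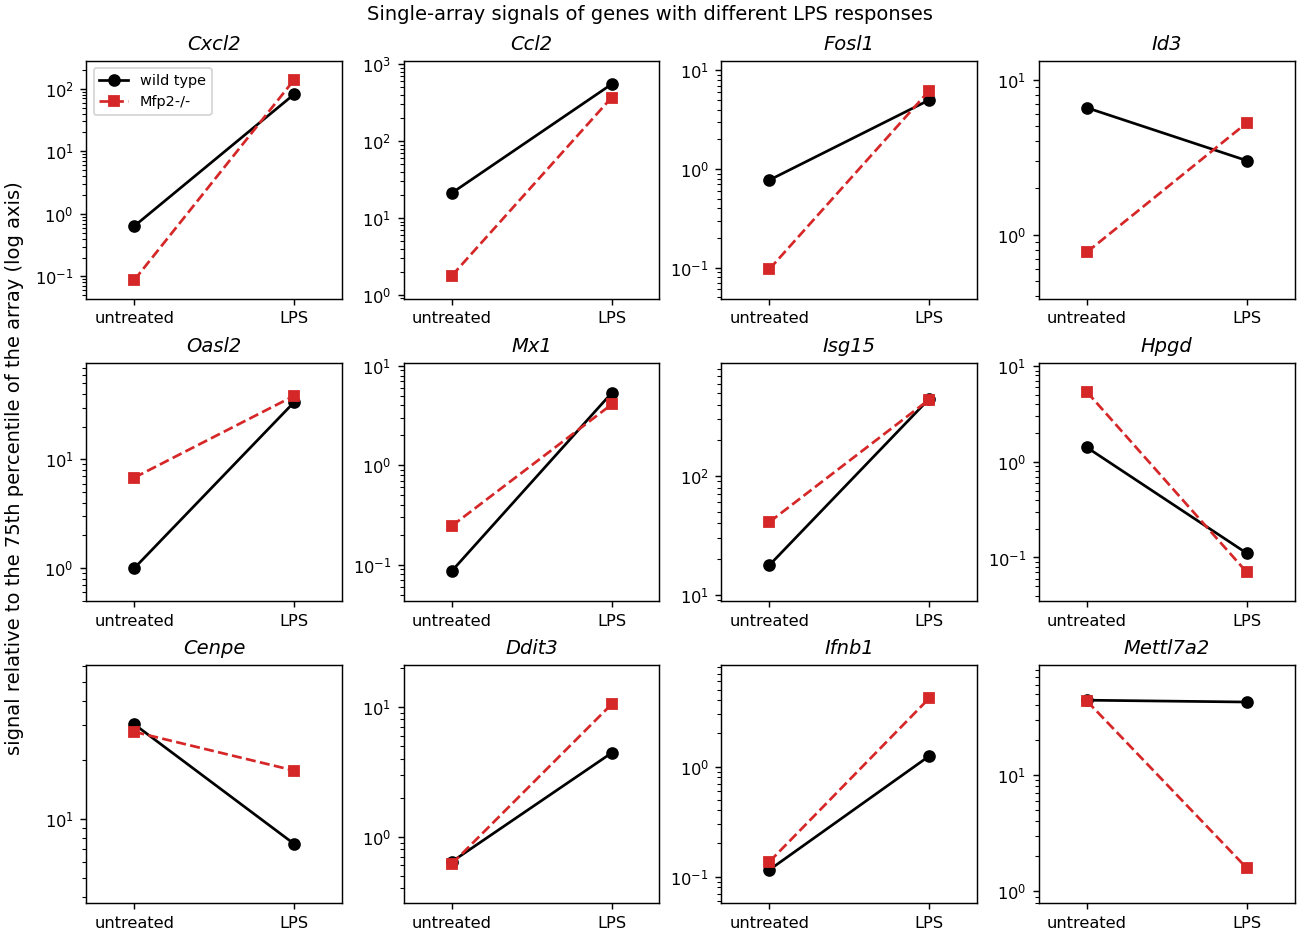
Signals of 12 genes relative to the 75th percentile of each array (log axis), without and with LPS, for wild type (black circles, solid) and Mfp2-/- (red squares, dashed), 1 array per point. The lines of Cxcl2, Fosl1, Oasl2, Mx1 and Isg15 are more than 2-fold apart without LPS and less than 2-fold apart with LPS. Those of Cenpe, Ddit3, Ifnb1 and Mettl7a2 start close together and part.

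Upstream sequences were compared because many of these genes moved together. For each gene the 250 bases before a RefSeq transcription start (GRCm38.p6) were searched on both strands for short motifs, and 9495 of 15526 genes had such an entry. Motifs may overlap each other and were counted separately, and a match is a description of letters only. The AP-1 site TGAGTCA was present in 8 of 59 genes with a higher difference at the untreated level (13.6%) and in 8 of 63 with a lower one (12.7%), against 3.83% of all genes measured. It was present in 0 of 14 immediate early genes. The kappa B-like site, GGG and TTCC with a spacer of 3 bases, was present in 3 of 5 chemokines and 3 of 5 cytokines, against 6.25% of all genes. At the untreated level its shares were nearer to that of all genes. It was present in 5 of 59 genes with a higher difference (8.47%) and 6 of 63 with a lower one (9.52%). The sequences of Cxcl2 (chr5:90903649-90903898, plus strand) and Plaur (chr7:24462233-24462482, plus strand) are shown as members with the lower signal in untreated Mfp2-/- cells, with the kappa B-like matches of Cxcl2 and the AP-1 match of Plaur in capitals, 5′ to 3′.
Cxcl2: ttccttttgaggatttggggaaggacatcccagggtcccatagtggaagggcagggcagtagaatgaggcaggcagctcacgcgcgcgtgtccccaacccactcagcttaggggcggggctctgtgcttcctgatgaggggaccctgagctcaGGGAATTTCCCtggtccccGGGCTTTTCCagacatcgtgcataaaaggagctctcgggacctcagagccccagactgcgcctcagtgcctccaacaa
Plaur: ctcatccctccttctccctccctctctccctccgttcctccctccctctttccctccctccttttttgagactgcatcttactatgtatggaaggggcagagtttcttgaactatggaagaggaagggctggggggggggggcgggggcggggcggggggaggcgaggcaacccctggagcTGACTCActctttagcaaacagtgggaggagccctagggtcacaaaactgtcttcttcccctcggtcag

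Interferon-stimulated genes showed the mirror image: they started higher in untreated Mfp2-/- cells and ended level or slightly lower, so that their induction was smaller. All 34 interferon-stimulated effectors on the list were measured, all 34 had a difference below 0, and 15 were at -1 or less, against 2.92% of all genes. Among the 1034 genes induced in both genotypes 67 were at -1 or less. The effectors had a median difference of -0.93, against 0.0028 over all genes. Their median LPS response was 3.21 in wild type and 2.16 in Mfp2-/- cells. The median genotype difference was 0.73 without LPS and -0.19 with LPS. Of the 15, 8 lay at the untreated level, 7 at neither level alone and 0 at the LPS level.

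Oasl2, an antiviral protein related to oligoadenylate synthetases, read 1.0 in wild-type and 6.81 in Mfp2-/- cells without LPS, and 33.6 and 38.4 with LPS, a difference of -2.57. Mx1, annotated here as a transcribed pseudogene, read 0.0864 and 0.245 and then 5.33 and 4.09, a difference of -1.89 (-1.20 with normexp). Ifi44l read 1.94 and 5.71 and then 20.8 and 15.6 (-1.97). Of the untreated arrays the Mfp2-/- one was the higher in each. Isg15, a ubiquitin-like modifier, read 17.8 and 41.0 and then 447 and 441, with a difference of -1.23 that rests on the untreated arrays. Ifit3 had -1.24, Ifit1 -0.94 and Rsad2 -0.68, and the smallest was Daxx at -0.32. Ddx60, an antiviral helicase that was not on the list, had -2.22 (-1.10 with normexp) and also started higher, at 0.0731 and 0.274.

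Related lists went the same way. Of 7 guanylate-binding proteins and immunity-related GTPases measured, 4 were at -1 or less (Ifi47 -1.35, Igtp -1.27, Irgm1 -1.10, Gbp7 -1.02), against 2.92% of all genes, and the median was -1.02. With normexp Gbp7 was at -0.64 and the median at -0.73, and with the mean of a gene's probes Irgm1 was at -0.83. Ifi47 is also on the effector list. Of 14 genes of MHC class I and peptide loading, 2 were at -1 or less, against 2.92% of all genes. They were the immunoproteasome subunit Psmb9 (-1.26) and the peptide transporter Tap1 (-1.23). Of the 14, 12 were below 0 (median -0.37). Among the interferon regulators, Stat2 (-1.08), a transcription factor that carries the interferon signal, was past 2-fold. The receptor genes Ifnar1 (0.20) and Ifnar2 (-0.10) and the kinase Jak1 (0.10) were close to 0.

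Ifnb1, the interferon itself, was the exception among these. It read 0.115 and 0.137 without LPS and 1.25 and 4.17 with LPS, so that the cells started alike and the Mfp2-/- cells ended higher. Its response was 3.43 in wild type and 4.93 in Mfp2-/- cells, a difference of 1.5 at the LPS level. The interferon gene and the interferon-stimulated genes measured on all 4 arrays thus differed in opposite directions and at different levels.

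The interferon-stimulated response element, a pair of GAAA repeats with a spacer of 2 bases, was present upstream of 11 of 26 interferon-stimulated effectors with an entry (42.3%), against 3.30% of all genes measured. It was present in 11 of 63 genes with a lower difference at the untreated level (17.5%) and in 3 of 59 with a higher one (5.08%). The sequence of Isg15 (chr4:156200819-156201068, minus strand, GRCm38.p6) is shown as an effector whose difference lay at the untreated level, with 3 overlapping matches in capitals.
Isg15: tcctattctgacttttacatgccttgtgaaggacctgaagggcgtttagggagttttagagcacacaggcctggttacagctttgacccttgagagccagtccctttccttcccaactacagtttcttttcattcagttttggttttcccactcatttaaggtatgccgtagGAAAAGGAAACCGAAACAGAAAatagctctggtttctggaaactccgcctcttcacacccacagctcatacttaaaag

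In the median of mitotic and stress genes, the genotypes started close together and parted with LPS. Genes of mitosis fell with LPS in wild type and fell less in Mfp2-/- cells. All 20 genes of mitosis and chromosome segregation were measured and all 20 had a difference above 0, with a median of 0.91, and 7 were at 1 or more, against 1.69% of all genes. With normexp 4 were, 2 of them at the LPS level in place of 6, and the median was 0.88. All 20 fell by 2-fold or more in wild type and 14 did in Mfp2-/- cells, with median responses of -2.06 and -1.25. The median genotype difference was -0.04 without and 0.84 with LPS. Cenpe, a kinetochore motor, read 30.3 and 27.7 without LPS and 7.47 and 17.6 with LPS (1.37). Bub1b, a spindle checkpoint kinase, read 9.23 and 10.1 and then 2.51 and 6.41 (1.22). Cenpf (1.18), Nusap1 (1.15), Cdc20 (1.13), Kif11 (1.13) and Tpx2 (1.0) were the others past 2-fold. With normexp Kif11 had 0.83, Tpx2 0.90 and Bub1b 0.93, and Cenpf was just under 1. Mki67 (0.45) and Ccnb2 (0.43) were among the smallest.

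Genes of DNA replication and S phase did not follow the mitotic genes. Of 19 measured, 0 were at 1 or more and 2 at -1 or less, against 1.69% and 2.92% of all genes. Of the 19, 15 lay below 0, and the median was -0.14. Ccne1, the cyclin of the G1 to S transition, read 12.9 and 18.4 without LPS and 9.19 and 4.49 with LPS (-1.55). E2f1, which switches on replication genes, had -1.19. Mcm6 had -0.92 and the other helicase subunits Mcm2 to Mcm5 and Mcm7 lay between -0.39 and -0.06.

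The CCAAT box was present upstream of 15 of 17 mitotic genes with an entry (88.2%), against 40.6% of all genes, and the cell cycle homology region (CHR) motif TTTGAA in 7 of 17 (41.2%) against 13.6%. Among all genes with a higher difference at the LPS level, the CCAAT box was present in 19 of 35 (54.3%) and the CHR motif in 4 of 35 (11.4%). Cdc20, the activator of the anaphase-promoting complex, is shown for its CHR match in capitals (chr4:118437344-118437593, minus strand, GRCm38.p6). It read 63.8 and 58.9 without LPS and 19.4 and 39.4 with LPS.
Cdc20: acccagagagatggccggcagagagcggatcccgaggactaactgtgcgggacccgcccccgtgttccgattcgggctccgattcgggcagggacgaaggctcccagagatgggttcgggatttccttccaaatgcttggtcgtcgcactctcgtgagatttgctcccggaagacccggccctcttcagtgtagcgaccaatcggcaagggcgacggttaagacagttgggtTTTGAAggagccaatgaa

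The unfolded protein and ATF4 response was the second group. Of 19 genes measured, 6 were at 1 or more, against 1.69% of all genes, and 0 at -1 or less, 16 lay above 0, and the median was 0.47. The median genotype difference was 0.01 without and 0.61 with LPS, and 5 of the 6 lay at the LPS level. That placing depended on the processing: it was 3 of 5 with normexp, 2 of 5 with quantile normalization and 1 of 5 in the deposited series table. Ddit3, the stress factor CHOP, read 0.641 and 0.616 without LPS and 4.42 and 10.5 with LPS (1.30), but a second probe of it gave 0.43. Ppp1r15a, which reverses the translational block, read 4.02 and 3.62 and then 13.6 and 27.8 (1.19). Sesn2 had 1.11, Chac1, a glutathione-degrading enzyme induced by ATF4, 1.09, and Trib3 1.04 (under 2-fold with normexp), while Atf3 (1.23) passed at neither level alone. Trib3 and Atf3 are also on the list of feedback inhibitors and were counted there. In the 5 genes at the LPS level the genotypes were, by the rule, less than 2-fold apart without LPS, and the Mfp2-/- array with LPS was the high one. Atf3 was not past 2-fold with LPS, and 1 other member of the list was 2-fold or more higher in untreated Mfp2-/- cells.

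Within that list Xbp1 (-0.06), Creld2 (-0.07) and Ern1 (-0.27), which belong to the endoplasmic reticulum arm, were below 0, and Hspa5, its main chaperone, had 0.76. Aminoacyl-tRNA synthetases and amino acid transporters, many of them ATF4 targets, were all 15 above 0, with a median of 0.42 and 0 past 2-fold. Slc7a11, the cystine transporter, had 0.67. The ATF4 site TGATGNAA was present upstream of 5 of 19 genes of the stress list (26.3%), against 2.66% of all genes. Among all genes with a higher difference at the LPS level it was present in 1 of 35 (2.86%). Chac1, which read 2.04 on both untreated arrays and 24.2 and 51.4 with LPS, is shown with its match in capitals (chr2:119350992-119351241, plus strand, GRCm38.p6).
Chac1: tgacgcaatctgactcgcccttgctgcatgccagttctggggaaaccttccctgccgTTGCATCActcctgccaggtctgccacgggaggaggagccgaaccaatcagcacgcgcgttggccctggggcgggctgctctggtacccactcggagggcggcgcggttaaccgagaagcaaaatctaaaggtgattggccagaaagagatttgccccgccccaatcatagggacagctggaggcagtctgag

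**Figure D5:**
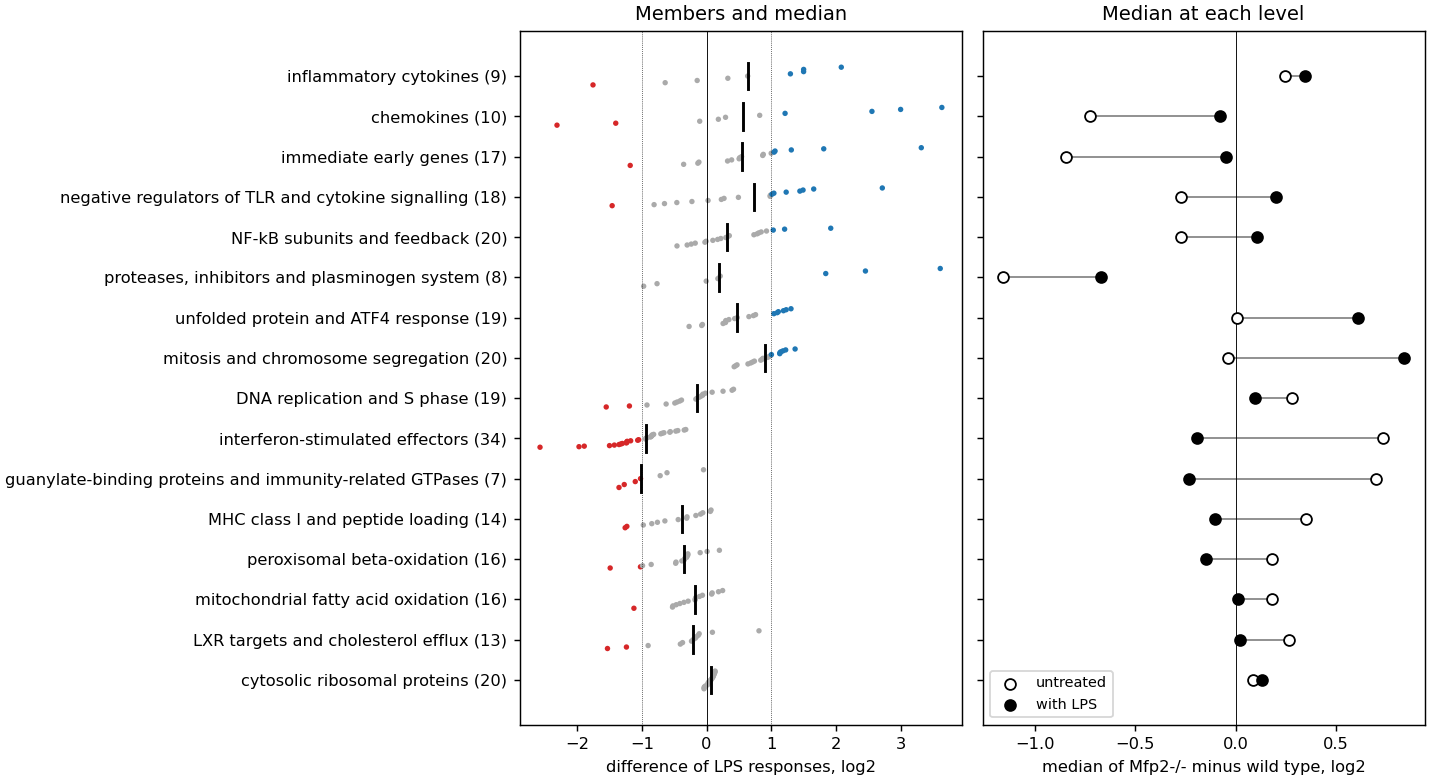
Left, the difference of LPS responses (log2) of each measured member of 16 gene lists, with the number measured in brackets, black bars for the median and coloured points for members past 2-fold. Right, the median genotype difference of each list without LPS (open) and with LPS (filled): the interferon lists lie above 0 without LPS, and the mitosis and stress lists lie above 0 with LPS.

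Of the 42 genes with a higher difference at the LPS level, Rasip1 (2.37), Fsd1l (2.05) and 6530402F18Rik (1.99) had the largest values. Rasip1 and Fsd1l were dim, below 0.6 on every array, and had 1.09 and 1.17 with normexp. Lca5 had 1.36. Lcn2, an iron-sequestering acute phase protein, read 0.0902 and 0.110 without LPS and 45.9 and 136 with LPS (1.28), and Saa3, serum amyloid A, 0.850 and 0.819 and then 153 and 360 (1.29). Cfb (-1.62) and Hdc (-1.19) of the same list of 8 measured genes lay on the other side, both higher in untreated Mfp2-/- cells, and with normexp they dropped under 2-fold (-0.56 and -0.48).

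Lower differences at the LPS level, the most numerous class, were led by Mettl7a2, a methyltransferase-like protein. It read 44.1 and 43.4 without LPS and 42.5 and 1.59 with LPS, so that 3 arrays were alike and the Mfp2-/- array with LPS was low, a difference of -4.72. It has no second measured probe. Rabif had -2.72, with a second probe at -1.29, and Cyp2s1, a cytochrome P450, had -2.55. For these genes too the Mfp2-/- array with LPS was the low one.

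Surface receptors were split. Of 16 scavenger and phagocytic receptors measured, 3 had a higher difference, against 1.69% of all genes, among them Msr1 and Clec4e (2.09), a receptor for mycobacterial glycolipid, and 4 a lower one, against 2.92%. Clec7a, the beta-glucan receptor, read 6.31 and 11.3 without and 18.5 and 9.95 with LPS (-1.74, second probe -1.65). Fcgr1, the high affinity receptor for IgG, read 4.12 and 12.6 and then 16.5 and 16.1 (-1.64), and Axl had -1.23 (-0.97 with normexp). The probes of Fcgr3 disagreed (-3.10 and 0.42). Irf4, a factor of alternative activation, read 0.228 and 0.265 and then 1.30 and 0.446 (-1.77).

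Of 16 genes of peroxisomal beta-oxidation measured, 2 were at -1 or less, against 2.92% of all genes, and 0 at 1 or more, 14 lay below 0, and the median was -0.34. The lowest value was -1.49. With normexp 1 of 16 was at -1 or less, and with the stricter filter on dim probes 1 of 14. Acaa1a, a peroxisomal thiolase, read 167 and 188 and then 147 and 81.7 (-1.02, second probe -0.85, mean of its probes -0.94). Its paralog Acaa1b, which may share its probe signal, had -0.99. Abcd3, a peroxisomal fatty acid transporter, had 0.01. The 16 genes of peroxisome biogenesis had a median of -0.08 and 0 past 2-fold.

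Other lipid lists held 0 to 3 members past 2-fold, against 4.61% of all genes (1.69% higher and 2.92% lower). In mitochondrial fatty acid oxidation 1 of 16 passed (6.25%), near the share of all genes. It was Cpt1a (-1.12, and -0.93 with normexp), the gatekeeper of import, and the list's median was -0.18. Of 13 LXR targets, Abcg1 (-1.53), a cholesterol exporter, and Apoc2 (-1.24) passed, with a median of -0.21. Of 18 genes of fatty acid synthesis 2 were lower, Acsl3 (-1.08), an acyl-CoA synthetase, and Scd1 (-1.06), the stearoyl-CoA desaturase, and the elongase Elovl3 was higher (1.24). With normexp these 3 were under 2-fold, at -0.85, -0.97 and 0.62. Cholesterol synthesis had 0 of 22 past 2-fold and a median of -0.20. Hpgd, which degrades prostaglandins, had the largest value of these: it read 1.41 and 5.38 without and 0.111 and 0.0703 with LPS, a difference of -2.59 at the untreated level. Ptgs1 had -1.04 (-0.91 with normexp) and Ptgs2, the inducible cyclooxygenase, 0.96.

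Genes past 2-fold at both levels mostly kept the direction of the genotype difference. Rgs16 read 2.89 and 0.233 without and 53.7 and 18.4 with LPS, a difference of 2.09 (1.29 with normexp), lower in Mfp2-/- cells throughout. Pparg, a lipid-sensing nuclear receptor, read 0.758 and 0.141 and then 0.217 and 0.0996 (1.31), and Cd200r2 1.18 and 0.526 and then 1.56 and 0.190, a difference of -1.87 (-1.19 with normexp). Hspb7 was far lower in Mfp2-/- cells at both levels (-6.21 without and -8.10 with LPS on the log2 scale), with a difference of -1.89. Plekhg5 (-2.45) and Ccdc80 (-2.67, and -1.59 with normexp) were higher without and lower with LPS, but with normexp neither gene was past 2-fold at both levels.

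Several other lists had no measured member with a difference past 2-fold, against 4.61% of all genes. This held for nitric oxide and oxidant production (0 of 12; Nos2 -0.20, Acod1 0.28), NRF2 targets (0 of 13, median 0.50, Hmox1 0.82), the TCA cycle (0 of 14), the proteasome (0 of 16), glycolysis and hypoxia genes (0 of 18), cytosolic ribosomal proteins (0 of 20, between -0.04 and 0.13) and ribosome biogenesis (0 of 19). Of these, ribosomal proteins, the proteasome and ribosome biogenesis also had 0 members past 2-fold in the wild-type response. Ribosome biogenesis lay above 0 in all 19 members, with a median of 0.25. With 1 array a group, a difference under 2-fold does not show that the responses were alike.

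Genes that were below background without LPS have no measured response, and their genotype difference is known with LPS only. Of 307 genes well above background on both LPS arrays and on neither untreated array, 28 were 2-fold or more higher in Mfp2-/- cells with LPS and 40 lower. Over the genes measured on all arrays the corresponding shares were 1.1% and 2.51%. Il6 read 22.4 in wild type and 94.7 in Mfp2-/- cells, a difference of 2.08, and Csf2 read 3.29 and 7.09 (1.11). Serpinb2, an inhibitor of plasminogen activators, read 4.22 and 0.423 (-3.32), and Ccl12 1.24 and 0.380 (-1.71). Il1b, at 229 and 208, and Il1a, at 32.3 and 33.3, were nearly level. Il1f6, another interleukin-1 family cytokine, read 2.66 and 1.53 (-0.80).

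The calls depend on single probes and on the background correction near the detection limit. Of the 715 genes, 155 had another measured probe, and in 26 of them it had the opposite sign. With normexp background correction 144 genes were higher and 232 lower. Of the 715 genes, 294 had a symbol, no measured probe of opposite sign, and passed 2-fold in the same direction with both normexp and quantile normalization, 110 higher and 184 lower. Of these, 62 higher and 49 lower lay at the untreated level, and 20 higher and 68 lower at the LPS level.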

How the data were processed

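Deposited scanner files of 4 one-colour arrays (design for mm9) were used. They hold spot intensity on a linear scale, background-subtracted and detrended within the array with Feature Extraction (Agilent), version 10.7.1.1 per the file headers; the submitters' processing notes name version 9.5.1.1. The deposited flags of the unit other (0 or 1 per spot) mark spots as well above background, saturated or outliers. The deposited series table, intensity on a linear scale with a median of 3.96 on log2 in every column, matched a quantile normalization within 0.01 log2 for 52836 to 52973 of 56601 probes; it was an alternative.

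Control and outlier spots were dropped, spots of a probe averaged, and log2 values computed relative to the 75th percentile over probes of each array (303 to 370). The brightest probe well above background on all 4 arrays stood for a gene. Probes were named through accessions (58.3%), symbols (18.1%) or synonyms (0.92%) of RefSeq GRCm38.p6, or kept the file's name (22.7%). A gene counted past 2-fold at 1 on the log2 scale. No test was possible, with 0 residual degrees of freedom. Named genes were Hsd17b4, the 10 largest differences per direction, the 6 largest per level and 4 at both levels that held under normexp and quantile normalization without an opposing probe, genes with opposite responses, up to 4 members of each of 51 gene lists with the largest difference, and well-known members. The lists hold 809 genes, 801 with a probe and 663 measured. The comparison, the members and the lists were chosen with earlier results of these data known. Further members with values past 2-fold, and genes from the group seen with LPS only, were picked after their values were seen. Some genes that the rule names are not reported here. Promoters came from RefSeq.

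Calling was tested on simulated data: for the difference of responses over 15526 genes, 100% of 100 changes of 1.5 and 100% of 100 changes of 3 (log2) were recovered at the right level, and 0 of 15326 unchanged genes were called, with spot error as the only noise. Each change was placed on a single array, and the spot error was small beside the threshold. The outcome was thus nearly fixed in advance. It checks the calling code and does not show how reliable the calls or levels are. Alternatives were other scalings, normexp background correction (offset 50, limma 3.58.1 in R 4.3.3), filters, probe rules and thresholds. Python 3.11.15, numpy 2.4.6, pandas 2.3.3 and matplotlib 3.10.9 were used.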

Additional observations from a re-analysis of the deposited data

Results flagged for a closer look

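In 3 genes the LPS response went past 2-fold in opposite directions in the 2 genotypes, each on single arrays, and the difference was not tested. Id3 fell by 1.13 on the log2 scale in wild type and rose by 2.77 in Mfp2-/- cells, a difference of 3.90. Ccdc80 rose by 1.43 in wild type and fell by 1.23 in Mfp2-/- cells, a difference of -2.67. Prkag3, a regulatory subunit of AMP-activated protein kinase, rose by 1.53 and fell by 1.09, a difference of -2.62. Its signal lay between 0.064 and 0.21 of the 75th percentile on every array, and with normexp background correction the difference was -1.03. Ccdc80 was also dim, between 0.167 and 0.514, with a difference of -1.59 under normexp.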

How the results depend on the processing

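No paired analysis was possible because each group had 1 array and the labels give no replicate numbers, and leaving out an array leaves no difference of responses to compute. The counts for higher and lower differences and for the untreated, LPS and both levels were 262, 453, 208, 218 and 28. They stayed within 1.5 times under quantile normalization, the deposited series table, median and spike-in centring, the mean of a gene's probes and the 75th percentile over spots, an alternative added after the data were seen. With normexp they were 144, 232, 118, 96 and 11. With the stricter filter on dim probes (12782 genes) they were 155, 260, 126, 129 and 11. Without a filter (37005 genes) they were 2713, 3050, 2413, 1819 and 562, and the higher share of calls went from 36.6% to 47.1%. At 1.5-fold they were 887, 1282, 533, 796 and 210, and at 4-fold 39, 35, 43, 26 and 5, where the higher share was 52.7%. With the level set by the larger part, 198 genes lay at both levels. No called direction of a named gene reversed in the alternatives run. Of 103 named genes past 2-fold, 85 were past it under normexp, 94 with the mean of probes, and 102 under quantile normalization and in the series table. The named genes with the largest differences were chosen for passing under normexp and quantile normalization without an opposing probe. These counts and the lack of reversals were thus in part fixed in advance. Of all 715 genes past 2-fold, 358 were also past it under normexp, 644 with the mean of probes and 671 under quantile normalization. Spike-in centring moved the median response of all genes to -0.19 in wild type and -0.20 in Mfp2-/- cells, and the median difference to -0.02. Signals near background and the single array per group limit all values.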

Other observations

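Circadian clock and p53 target genes were also listed. Over all genes measured 4.61% were past 2-fold. The genes below are named as single values, not as results about their lists. Of 12 clock genes measured, 1 was past 2-fold, Cry1 (1.13), whose second probe gave -0.41. Of 13 p53 targets, Plk2 and Fas (2.22) were past it, and a second probe of Fas gave 0.32. Among 19 respiratory chain subunits Cox4i1 was the 1 past 2-fold. It read 260 and 88.5 without LPS and 300.3 and 242 with LPS (1.24), while the median of the list was -0.15. Of 20 lysosomal genes, Psap, the precursor of saposins, was the 1 past 2-fold (-1.02). Of 12 osteoclast and cell fusion genes, Itgb3, the beta-3 integrin, had -2.09 and was higher in untreated Mfp2-/- cells (0.0823 and 0.454), and Mmp9 was the higher member. Of 15 sphingolipid enzymes, Cerk had -1.02, and of 8 ether lipid genes, Agpat4 had 1.28, with a second probe at 1.59. With normexp background correction Cry1 was at 0.47, Psap at -0.97 and Itgb3 at -1.14.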
